A study of Mus musculus with 18 samples.

Results

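Immunity-related GTPases (IRGs) are interferon-inducible proteins with which mouse cells attack the vacuoles of intracellular parasites and bacteria. The 7 genes Irgm1, Irgm2, Igtp, Iigp1, Ifi47, Tgtp1 and Tgtp2 were chosen by name, and 6 of them were found among the 16248 genes of the expression table and described in all 18 libraries. The expression of Tgtp2 was not analysed here. The measurements were bulk RNA-seq of endothelial cells (ECs), which form the inner wall of blood vessels, from normal breast tissue and 2 kinds of breast tumour, with and without cGAMP. This small cyclic molecule switches on STING, the adaptor of the cytosolic DNA-sensing pathway. The IRGs were followed from their baseline level in PBS-treated tissue, which was the point of most interest in implanted tumours, to the level reached under cGAMP.

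All mice were of the FVB strain, and ECs were collected 3 h after an injection of phosphate-buffered saline (PBS) or of cGAMP (14 μg in 70 μl for tumours). Normal ECs were those of mammary fat pads in wild-type animals. MMTV-PyMT ECs came from spontaneous breast tumours of female transgenic mice, in which a mammary tumour virus promoter drives the polyoma middle T oncogene mainly in mammary epithelium, and whose treatment began at 9 weeks of age. Implanted ECs came from wild-type females that had received tumour cells of MMTV-PyMT mice at 8 to 9 weeks of age, after 2 days of culture and in Matrigel, in the mammary fat pad. Host ECs of implanted tumours therefore carried no transgene, and the interval between implantation and sampling was not given for these libraries. Each of the 6 groups held 3 libraries. Each group came from 3 mice of 3 independent experiments, and which library belongs to which experiment was not given, so p-values measure the spread between these libraries.

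The libraries held 9068064 to 12058796 reads that could be recovered from the table. Each FPKM value of the 6 IRGs (fragments per kilobase of transcript, with a scale for each library) corresponded to a whole number of reads. The scale did not follow the recovered totals. A read on 1 kb was 0.1196 FPKM in implanted cGAMP library 1 (11232852 reads) and 0.0843 in normal PBS library 2 (10405664 reads). Ratios of mean FPKM between groups carry this scale. All 8 endothelial markers looked for (Pecam1 and Cdh5 among them) were present in every library. With PBS they summed to 1000 to 1130 FPKM in normal, 715 to 872 in MMTV-PyMT and 1010 to 1280 in implanted libraries. With cGAMP the sums were 912 to 1050, 774 to 1050 and 1030 to 1730 in the same order. Markers of other cells were present too. The 6 epithelial markers summed to 231 to 511 FPKM in normal and implanted libraries and to 537 to 891 in MMTV-PyMT libraries. The 4 mural markers summed to 638 to 881 in normal and 151 to 392 in tumour libraries, and the 4 fibroblast markers to 34.7 to 63.2 in normal, 83.3 to 134 in MMTV-PyMT and 182 to 476 in implanted libraries. The 8 measured leukocyte markers of 10 summed to 19.3 to 105, except in implanted cGAMP library 2, where they summed to 284. In bulk RNA, fewer cells of a type and less RNA per cell cannot be told apart.

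IRG proteins fall into a pair of classes with different jobs. Irgm1, Irgm2 and Igtp (also called Irgm3) sit on the cell's own membranes and act as regulators that hold the other IRGs inactive there. Iigp1 (Irga6), Tgtp1 and Tgtp2 (both Irgb6) and Ifi47 (Irgd) are effectors that load onto the vacuole of a pathogen and help to break it. Interferon-gamma, through the GAS element, is their best known inducer, and type I interferon, through the ISRE element, induces many of the same genes. STING activation leads to production of type I interferon.

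The IRG genes lie close together. On mouse chromosome 11 (GRCm38, GENCODE M21 gene models) Irgm1 spans 48861968 to 48871683, Tgtp1 48985327 to 48994172, Tgtp2 49057194 to 49064206 and Ifi47 49076587 to 49096974. Igtp at 58199556 to 58207591 and Irgm2 at 58199618 to 58222782 form a second site on the same chromosome, while Iigp1 lies on another chromosome. Igtp and Irgm2 exons shared 162 bases on the same strand. Ifi47 exons shared 111 bases with Olfr56 on the same strand, and Tgtp1 exons shared 223 bases with Gm12185. The fate of reads in such shared bases, and whether strand was used, were not given in the sources used here. The Tgtp1 transcripts were hard to tell from those of Tgtp2, since 74.6% of their runs of 75 bases also occurred in Tgtp2. The same share was 7.8% for Igtp (with Irgm2), 4.78% for Irgm2 with any gene, 2.82% for Ifi47, and 0% for Irgm1 and Iigp1. Tgtp1 values are thus uncertain as values of 1 gene, and those of the other 5 members rest mainly on sequence of their own.

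Promoter windows were read for the 6 members with a RefSeq entry (GRCm38.p6, 250 bases before to 50 after the gene start), because the IRGs rose together with cGAMP. A GAS sequence, TTCNNNGAA, occurred on either strand in 8.3% of 32851 windows of the same length and an ISRE sequence (GAAA, any 2 bases, GAAA) in 3.44%. Both within 10 bases of each other occurred in 0.131% of windows. Irgm2, Igtp, Tgtp1 and Tgtp2, 4 of the 6, held such a pair, with the GAS first and the ISRE behind it. Irgm1 held a pair of ISRE matches that overlap each other and no GAS, and the letters of neither were found in the Ifi47 window. Gm12250, another IRG gene, held a GAS and an ISRE within 10 bases too. Its ISRE letters lie on the opposite strand and at another spacing, and it is not printed. The stretches below hold the matches, with the matched letters in capitals and the GAS before the ISRE where both occur. They are printed 5′ to 3′ on the strand of each gene.
Irgm1: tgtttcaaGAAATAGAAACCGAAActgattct
Irgm2: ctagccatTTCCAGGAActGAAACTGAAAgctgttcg
Igtp: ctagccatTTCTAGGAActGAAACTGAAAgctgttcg
Tgtp1: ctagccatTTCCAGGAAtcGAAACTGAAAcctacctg
Tgtp2: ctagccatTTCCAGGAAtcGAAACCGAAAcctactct
Gm12185: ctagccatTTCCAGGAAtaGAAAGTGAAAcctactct

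The stretches lie at chr11:48871427-48871458 (minus strand, Irgm1), chr11:58214894-58214930 (plus, Irgm2), chr11:58199503-58199539 (plus, Igtp), chr11:48992306-48992342 (minus, Tgtp1), chr11:49064265-49064301 (minus, Tgtp2) and chr11:48927240-48927276 (minus, Gm12185). Gm12185 is a further IRG gene of the same site and is shown because its stretch matches that of the Tgtp genes closely. Distances are counted from 0 at the gene start base. The GAS began 75 bases before it in Irgm2, 45 in Igtp, 88 in Tgtp1 and 81 in Tgtp2, and in these 4 the ISRE began 11 bases after the GAS did. The longest run of bases common to the windows of Igtp and Irgm2 was 61 bases, against 27 for Tgtp1 and Tgtp2 and 7 to 20 for the other pairs of members. A match is a description of letters in the window and says nothing of binding.

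**Figure D1:**
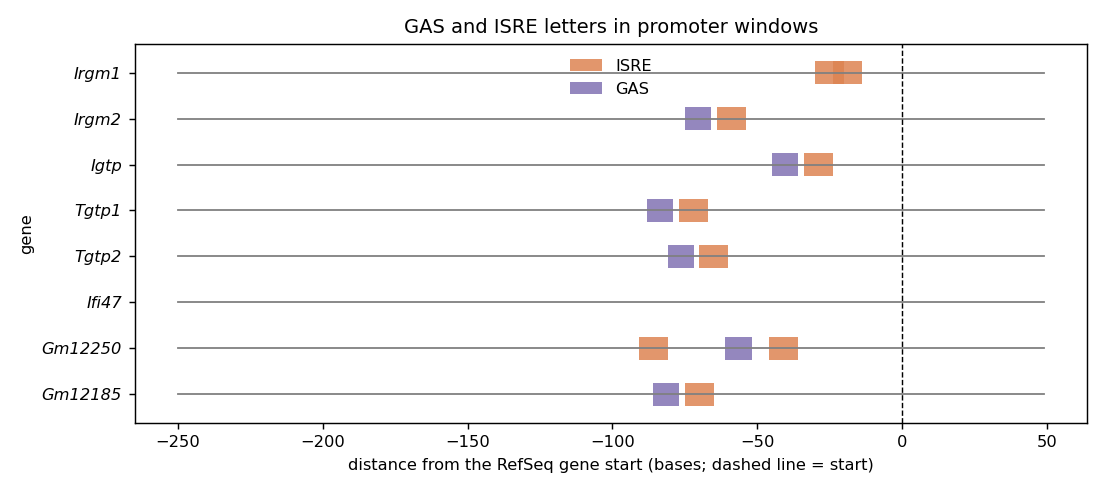
Positions of GAS (purple) and ISRE (orange) letter matches in the promoter windows of 6 IRG members and of Gm12250 and Gm12185, by distance in bases from the RefSeq gene start (dashed line). In Irgm2, Igtp, Tgtp1, Tgtp2 and Gm12185 the GAS precedes the ISRE by the same spacing, at 45 to 88 bases before the start.

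All 6 measured IRGs rose with cGAMP in ECs of every tissue, and all 6 stood higher at baseline in implanted tumours than in normal or MMTV-PyMT tissue. The induced levels of normal and MMTV-PyMT ECs were close to each other, while in implanted ECs Igtp, Ifi47 and Tgtp1 reached levels 2.72 to 3.79 times higher. Values are given in FPKM in the order of libraries 1, 2 and 3.

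Among the regulators, Irgm1 (needed for resistance to several intracellular pathogens) had FPKM of 2.05, 2.49 and 2.48 in normal PBS libraries and 39.9, 36.9 and 30.8 in normal cGAMP libraries. In MMTV-PyMT ECs the Irgm1 values were 1.67, 2.18 and 1.73 with PBS and 34, 36.2 and 38.2 with cGAMP. In implanted ECs they were 11.7, 7.98 and 8.99 with PBS and 53, 45.1 and 43.4 with cGAMP. PBS and cGAMP libraries of Irgm1 did not overlap in any tissue, and the implanted PBS libraries stood between both sets. Irgm1 was the least abundant regulator in every library.

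Irgm2 had FPKM of 10.7, 13.3 and 10.6 in normal PBS libraries and 143, 129 and 103 in normal cGAMP libraries. MMTV-PyMT ECs gave Irgm2 values of 4.72, 7.23 and 5.14 with PBS and 118, 153 and 168 with cGAMP. Implanted ECs gave 47.3, 33.2 and 39.7 with PBS and 217, 185 and 190 with cGAMP. Normal and MMTV-PyMT libraries of Irgm2 were apart under PBS, with MMTV-PyMT lower, and overlapped under cGAMP.

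Igtp, the regulator that works on endoplasmic reticulum and lipid droplet membranes, had FPKM of 12.7, 14.1 and 12.8 in normal PBS libraries and 190, 178 and 117 in normal cGAMP libraries. Its MMTV-PyMT values were 5.48, 7.53 and 5.84 with PBS and 169, 238 and 269 with cGAMP. Its implanted values were 122, 88.3 and 112 with PBS and 648, 593 and 597 with cGAMP. The highest implanted PBS library of Igtp lay above the lowest normal cGAMP library, the only member and pair of groups where implanted baseline and an induced level overlapped. With cGAMP, implanted Igtp was higher in each library than any other value of the family.

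Of the effectors, Iigp1 had FPKM of 22.4, 24.8 and 22 in normal PBS libraries and 287, 287 and 234 in normal cGAMP libraries. Iigp1 values in MMTV-PyMT ECs were 10.5, 11.9 and 8.26 with PBS and 213, 320 and 297 with cGAMP. In implanted ECs Iigp1 was 110, 79.6 and 86.4 with PBS and 404, 329 and 356 with cGAMP. It was the most abundant member in all normal and MMTV-PyMT libraries, and its implanted cGAMP values stood just above the highest MMTV-PyMT cGAMP value.

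Tgtp1, whose protein is among the first IRGs to reach a parasite's vacuole, had FPKM of 2.25, 2.88 and 2.43 in normal PBS libraries and 39.1, 40.2 and 29.3 in normal cGAMP libraries. The MMTV-PyMT values of Tgtp1 were 0.525, 0.622 and 0.584 with PBS, from 30 to 33 reads each, and 28, 41.8 and 40.8 with cGAMP. Implanted values were 25.4, 18.3 and 22.1 with PBS and 121, 103 and 107 with cGAMP. As a ratio of the highest to the lowest library Tgtp1 had the widest range of the 6 members, and its implanted PBS libraries came close to the lowest induced libraries of the other tissues without reaching them.

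Ifi47 was the least abundant member, with FPKM of 0.424, 0.422 and 0.869 in normal PBS libraries and 5.84, 5.43 and 3.89 in normal cGAMP libraries. MMTV-PyMT ECs had Ifi47 values of 0.241, 0.333 and 0.158 with PBS, which were 10 to 18 reads, and 4.16, 5.59 and 6.54 with cGAMP. Implanted ECs had 3.52, 2.42 and 2.88 with PBS and 16.3, 14.9 and 13.6 with cGAMP. Normal PBS library 3 held more Ifi47 than both others, and the groups kept the order of the other members.

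**Figure D2:**
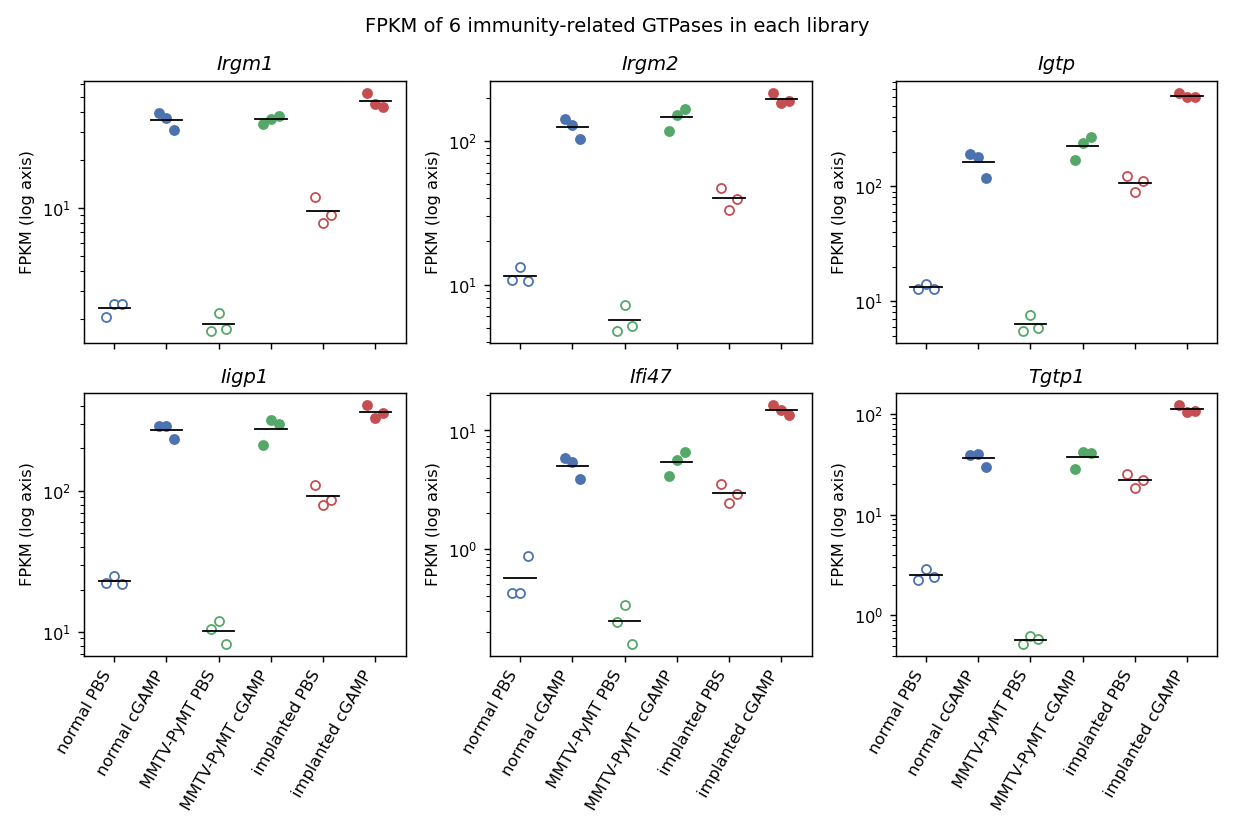
FPKM (log axis, a scale of its own in each panel) of 6 IRGs in each of 18 libraries, with open circles for PBS, filled circles for cGAMP and a bar at the group mean. In each panel implanted PBS libraries lie between the PBS and most or all of the cGAMP libraries of normal and MMTV-PyMT tissue, and implanted cGAMP libraries are highest.

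FPKM is per length, so the members are set side by side here. How reads shared between genes were counted was not given, so the comparison is approximate. The place of Tgtp1, and its part in sums, is the least certain. In normal PBS ECs the means were 23 ± 1.51 for Iigp1, 13.2 ± 0.775 for Igtp, 11.5 ± 1.57 for Irgm2, 2.52 ± 0.327 for Tgtp1, 2.34 ± 0.254 for Irgm1 and 0.572 ± 0.257 for Ifi47 (FPKM, SD, n = 3). Igtp and Irgm2 overlapped there, as did Tgtp1 and Irgm1. In implanted PBS ECs the order was Igtp at 107 ± 17.4, Iigp1 at 91.8 ± 15.7, Irgm2 at 40.1 ± 7.01, Tgtp1 at 21.9 ± 3.52, Irgm1 at 9.57 ± 1.95 and Ifi47 at 2.94 ± 0.55, with the first pair overlapping. The 6 members together summed to 53.2 FPKM in normal PBS, 24.9 in MMTV-PyMT PBS and 274 in implanted PBS ECs, and to 633, 727 and 1350 with cGAMP.

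The comparison of cGAMP with PBS asks how far ECs of each tissue respond. A gene was called when limma's Benjamini-Hochberg adjusted p over 13983 genes was below 0.05 and its log2(FPKM + 1) differed by at least 1. This scale understates changes of members at low FPKM. In normal ECs all 6 IRGs were called higher, where 3.02% of all genes tested were. The log2 increases with their SE were 3.46 ± 0.13 for Irgm1, 3.32 ± 0.17 for Irgm2, 3.49 ± 0.18 for Igtp, 3.49 ± 0.16 for Iigp1, 3.39 ± 0.15 for Tgtp1 and 1.94 ± 0.16 for Ifi47. As ratios of mean FPKM the increases were 8.84-fold (Ifi47) to 15.3-fold (Irgm1). The limma adjusted p values ranged from 2.53e-11 (Irgm1) to 3.43e-07 (Ifi47).

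In MMTV-PyMT ECs all 6 were called higher again, against 2.49% of genes. The log2 increases were 3.70 ± 0.13 for Irgm1, 4.46 ± 0.17 for Irgm2, 4.94 ± 0.18 for Igtp, 4.62 ± 0.16 for Iigp1, 4.56 ± 0.15 for Tgtp1 and 2.35 ± 0.16 for Ifi47. Mean FPKM rose 63.9-fold for Tgtp1, 35.9-fold for Igtp, 27-fold for Iigp1, 25.7-fold for Irgm2, 22.3-fold for Ifi47 and 19.4-fold for Irgm1. In implanted ECs, too, all 6 were called higher, where 6.13% of genes were. There the log2 increases were smaller, at 2.20 ± 0.13 for Irgm1, 2.28 ± 0.17 for Irgm2, 2.51 ± 0.18 for Igtp, 1.98 ± 0.16 for Iigp1, 2.29 ± 0.15 for Tgtp1 and 2.02 ± 0.16 for Ifi47. The ratios of mean FPKM in implanted ECs ran from 3.95 (Iigp1) to 5.7 (Igtp). Over the 6 members the median log2 change reached 3.43 (normal), 4.51 (MMTV-PyMT) and 2.24 (implanted), beside −0.04, −0.04 and −0.01 for all genes tested.

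**Figure D3:**
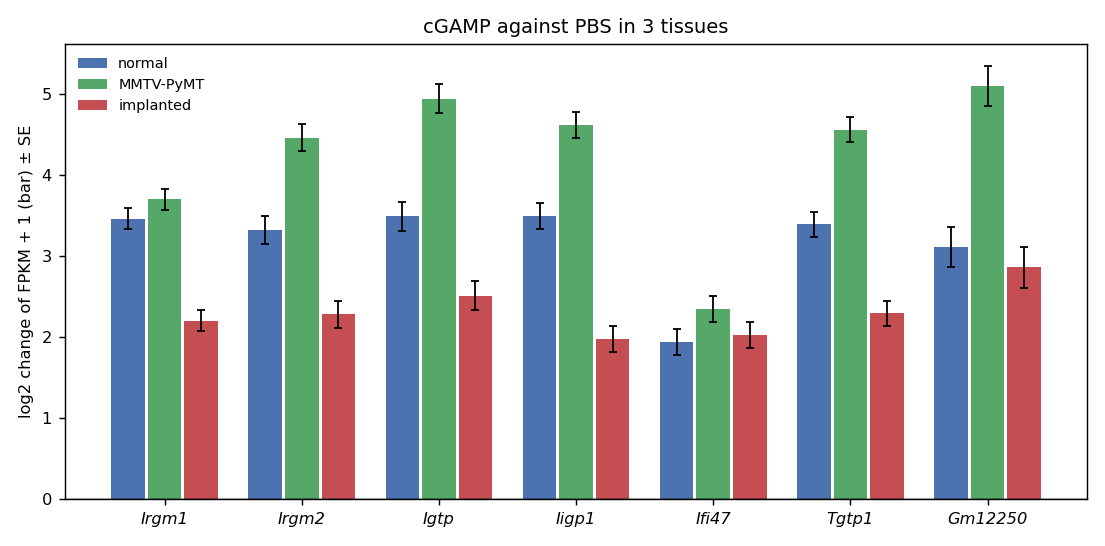
Change of log2(FPKM + 1) from PBS to cGAMP (bar, with SE from the limma fit) for the 6 IRGs and Gm12250 in normal (blue), MMTV-PyMT (green) and implanted (red) ECs, 3 libraries a group. For Irgm2, Igtp, Iigp1 and Tgtp1 the MMTV-PyMT bar is the tallest and the implanted bar the shortest, while the Ifi47 bars differ by at most 0.41.

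The differences between these responses were tested as interaction terms. Against normal ECs, the log2 response in implanted ECs was smaller for Iigp1 (−1.51 ± 0.23), Irgm1 (−1.26 ± 0.18), Tgtp1 (−1.11 ± 0.22) and Irgm2 (−1.04 ± 0.24). These 4 were called, where 0.937% of genes were called in that direction. Igtp (−0.98 ± 0.26) passed adjusted p alone with limma's adjusted p of 0.0155, which brought the count to 5, against 6.09% of genes. Igtp was called with a pseudocount of 0.1 (−1.05), with voom on recovered reads (−1.06), with quantile normalization (−1.62) and with libraries scaled by total reads (−1.30), and without normal PBS library 2 (−1.02), normal cGAMP library 3 (−1.19), implanted PBS library 2 (−1.11) or implanted cGAMP library 1 (−1.02). Without implanted PBS library 1 only Irgm1 and Iigp1 stayed called, with −0.92 for Irgm2 and −1.0 for Tgtp1, just short of the limit. Irgm2 also lost its call without normal PBS library 1 (−0.99) or 3 (−0.98), normal cGAMP library 1 (−0.93) or implanted cGAMP library 2 (−0.99). For Ifi47 the difference was 0.08, with an interval of −0.41 to 0.57, and its sign changed with the pseudocount and the scaling. It was −0.66 with a pseudocount of 0.1 and −0.86 with voom on recovered reads. Mean FPKM of Ifi47 rose 8.84-fold in normal and 5.08-fold in implanted ECs, so the main fit does not settle whether its response differed.

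Against normal ECs, the response in MMTV-PyMT ECs was larger for Igtp (1.45 ± 0.26), Tgtp1 (1.17 ± 0.22), Irgm2 (1.14 ± 0.24) and Iigp1 (1.13 ± 0.23). These 4 members were called, against 1.28% of genes. Without MMTV-PyMT PBS library 3 the Iigp1 difference was 1.0, just short of the limit, and lost its call. The intervals for Irgm1 (−0.14 to 0.63) and Ifi47 (−0.07 to 0.90) included 0. Between implanted and MMTV-PyMT ECs the response was smaller in implanted ECs for 5 members, against 0.629% of genes, namely Iigp1 (−2.64 ± 0.23), Igtp (−2.43 ± 0.26), Tgtp1 (−2.28 ± 0.22), Irgm2 (−2.18 ± 0.24) and Irgm1 (−1.50 ± 0.18). For Ifi47 it was −0.33, with limma's adjusted p of 0.411. With a pseudocount of 0.1 in place of 1 this became −1.70, and −2.13 in the voom fit to recovered reads, and Ifi47 was called in both.

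Baseline levels were compared under PBS. Implanted ECs exceeded normal ECs in all 6 IRGs, all called, where 5.74% of genes were called higher. Mean FPKM was 8.71 times higher for Tgtp1, 8.14 times for Igtp, 5.14 times for Ifi47, 4.09 times for Irgm1, 3.99 times for Iigp1 and 3.47 times for Irgm2. On the log2 scale the increases ran from 1.33 ± 0.16 for Ifi47 to 2.92 ± 0.18 for Igtp, and their median was 1.82, beside 0.01 for all genes. The limma adjusted p values lay between 1.63e-09 (Tgtp1) and 5.74e-06 (Ifi47). The highest normal library was below the lowest implanted library for each of the 6. The share of all genes separated in this way is not given here. Gm5431 (0.32) and Irgq (0.86), IRG genes outside the 6, were separated too without being called. Leukocyte marker sums were 31.4 to 71.9 in implanted PBS and 34 to 88.2 in normal PBS libraries, so they did not stand higher with the IRGs, and 0 of 8 were called higher and 1 lower. Fibroblast marker sums were 182 to 212 against 49.4 to 56.3, which rested on Col1a1 (2.42), while Dcn (−1.92) and Lum (−1.18) were called lower and the median of the 4 was −0.57. Mural marker sums were 177 to 217 against 776 to 881, with 3 of 4 markers called lower. The part of these cells in the result was not tested.

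Against MMTV-PyMT ECs the baseline difference was wider, and all 6 were again called, where 4.28% of genes were called higher. Tgtp1 was 38 times, Igtp 17.1 times, Ifi47 12 times, Iigp1 8.98 times, Irgm2 7.04 times and Irgm1 5.14 times higher in implanted ECs. The median log2 difference was 2.83, beside −0.01 for all genes. Leukocyte marker sums under PBS were 19.3 to 29.7 in MMTV-PyMT and 31.4 to 71.9 in implanted libraries, with 0 of 8 markers called by limma or voom and 0 at an unadjusted p below 0.05. All 8 still stood higher in implanted ECs, as the IRGs did, from 0.45 for Csf1r to 0.94 for Coro1a (median 0.74). Epithelial marker sums were 809 to 891 and 338 to 505, and 4 of 6 markers were called lower in implanted ECs (median of the 6, −1.04). Endothelial marker sums were 715 to 872 and 1010 to 1280, with 0 of 8 markers called by limma or voom. By adjusted p alone 5 endothelial markers were higher and 1 lower in implanted ECs (median of the 8, 0.62). The part of these cells was not tested. Tumour type, transgene in the host, Matrigel and time of tumour growth differ together between these groups and cannot be told apart.

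MMTV-PyMT ECs lay below normal ECs at baseline for most members. Tgtp1 (−1.15 ± 0.15, 4.36 times lower in mean FPKM) and Iigp1 (−1.11 ± 0.16, 2.25 times lower) were called, where 7.67% of genes were called lower. Igtp (−0.97 ± 0.18) and Irgm2 (−0.92 ± 0.17) passed adjusted p but not the fold limit, which made 4 of 6, against 26.6% of genes. Both were called with a pseudocount of 0.1, with recovered reads, or without MMTV-PyMT PBS library 2 (−1.09 and −1.07). Without MMTV-PyMT PBS library 3 the Iigp1 value was −0.98 and Tgtp1 alone was called. Irgm1 (−0.22, interval −0.50 to 0.05) and Ifi47 (−0.33, interval −0.67 to 0.02) did not pass, with limma adjusted p of 0.147 and 0.0961. In mean FPKM Irgm1 was 1.26 times and Ifi47 2.34 times lower, and the log2(FPKM + 1) scale understates the Ifi47 change at its low FPKM. In the same libraries epithelial marker sums were 809 to 891 in MMTV-PyMT and 310 to 384 in normal, and mural sums 194 to 270 and 776 to 881. Endothelial marker sums were 715 to 872 and 1000 to 1130. By adjusted p alone 5 of 8 endothelial markers were lower, 1 of them called (median of the 8, −0.48). Of the markers 4 of 6 epithelial were called higher and 4 of 4 mural and 4 of 8 leukocyte lower in MMTV-PyMT ECs, and their part was not tested.

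Induced levels were compared under cGAMP. Between MMTV-PyMT and normal ECs limma called 0 of 6 members, where 10.4% of genes were called in either direction, and the voom fit to recovered reads also called 0. The differences were 0.02 for Irgm1 (interval −0.25 to 0.29), 0.02 for Iigp1 (−0.32 to 0.36), 0.02 for Tgtp1 (−0.31 to 0.34), 0.08 for Ifi47 (−0.26 to 0.43) and 0.22 for Irgm2 (−0.14 to 0.58). Their libraries overlapped. Igtp was the 1 member with an unadjusted p below 0.05, at 0.48 (0.09 to 0.87) and limma adjusted p of 0.0404, against 28.7% of genes higher by adjusted p alone. So a baseline gap of 4.36 times in Tgtp1 between these tissues was followed by induced means of 36.9 ± 7.68 and 36.2 ± 6 FPKM (SD, n = 3).

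Under cGAMP, implanted ECs exceeded normal ECs by 1.95 ± 0.18 log2 units in Igtp, 1.59 ± 0.15 in Tgtp1 and 1.41 ± 0.16 in Ifi47, which were called, where 9.03% of genes were called higher. These were 3.79, 3.05 and 2.96 times higher in mean FPKM. Irgm2 (0.67 ± 0.17), Iigp1 (0.43 ± 0.16) and Irgm1 (0.39 ± 0.13) passed adjusted p alone, so that 6 of 6 did, against 31.3% of genes. The signs of Irgm1 and Iigp1 turned to −0.09 and −0.06 when libraries were scaled by total reads, and to −0.08 and −0.21 with quantile normalization. Scaling by total reads moved the median of all genes to −0.32 in this comparison. Ifi47 then stood at 0.96, and with quantile normalization Tgtp1 stood at 1.0, both just short of a call.

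Against MMTV-PyMT ECs under cGAMP the same 3 members were called, where 7.02% of genes were called higher. Tgtp1 was 2.99 times (1.57 ± 0.15), Ifi47 2.75 times (1.32 ± 0.16) and Igtp 2.72 times (1.47 ± 0.18) higher in implanted ECs. Quantile normalization left Igtp at 0.88 and uncalled. Irgm2 (0.44 ± 0.17), Iigp1 (0.41 ± 0.16) and Irgm1 (0.37 ± 0.13) passed adjusted p alone, which made 6 of 6, against 26% of genes, and Iigp1 turned to −0.05 with quantile normalization. Leukocyte markers moved with the IRGs here, since 8 of 8 were called higher in implanted than in MMTV-PyMT ECs under cGAMP (median 1.79) and 3 of 8 higher than in normal ECs (median 0.99). Their sums were 62.7, 284 and 56.8 in implanted cGAMP libraries 1, 2 and 3, against 22.2 to 25.6 in MMTV-PyMT and 21.5 to 105 in normal cGAMP libraries, and their part in the result was not tested. Implanted cGAMP library 2, which held the most leukocyte marker RNA, had the lowest value of its group in Irgm2, Igtp, Iigp1 and Tgtp1. For Igtp this was 593 against 597 FPKM in library 3, and library 3 was lowest in Irgm1 and Ifi47. Without library 2 the 3 called differences from normal ECs were 1.97 for Igtp, 1.64 for Tgtp1 and 1.41 for Ifi47. Those from MMTV-PyMT ECs were 1.49, 1.62 and 1.32. Leaving out 1 library does not test the part of leukocyte RNA, which the other implanted cGAMP libraries also held.

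The implanted baseline was then set against the induced level of the other tissues. Compared with normal cGAMP ECs, implanted PBS ECs were lower by call in Irgm1 (−1.81 ± 0.13), Irgm2 (−1.62 ± 0.17) and Iigp1 (−1.55 ± 0.16), where 6.67% of genes were called lower. Tgtp1 (−0.70 ± 0.15), Ifi47 (−0.61 ± 0.16) and Igtp (−0.57 ± 0.18) were nearer to the induced level and passed adjusted p alone, so that 6 of 6 did, against 26.7% of genes. Induced normal means exceeded the implanted baseline by 3.75 times in Irgm1, 3.12 in Irgm2, 2.93 in Iigp1, 1.72 in Ifi47, 1.65 in Tgtp1 and 1.5 in Igtp. Compared with MMTV-PyMT cGAMP ECs, 4 members were called lower, against 2.87% of genes. These were Irgm2 (−1.84 ± 0.17), Irgm1 (−1.83 ± 0.13), Iigp1 (−1.57 ± 0.16) and Igtp (−1.05 ± 0.18), and Igtp lost its call without implanted PBS library 2 (−0.91) or MMTV-PyMT cGAMP library 2 (−0.99) or 3 (−0.91). Tgtp1 (−0.71 ± 0.15) and Ifi47 (−0.70 ± 0.16) passed adjusted p alone and brought the count to 6, against 19.1% of genes.

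**Figure D4:**
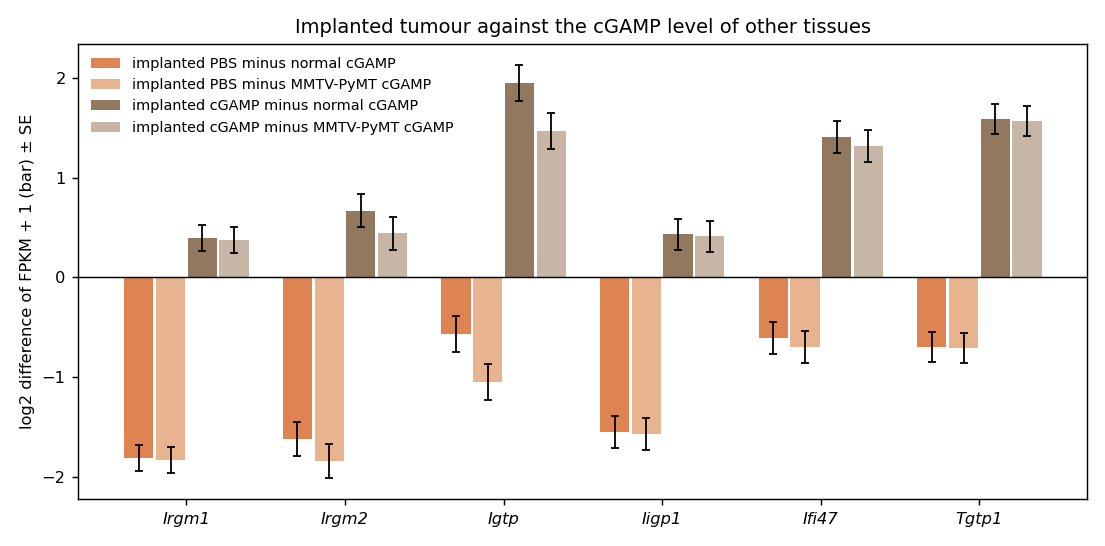
Differences in log2(FPKM + 1), with SE from the limma fit, of implanted ECs from the cGAMP level of normal and MMTV-PyMT ECs, 3 libraries a group. Orange bars set the implanted PBS baseline against the induced level and are below 0 for all 6 members, least so for Igtp, Ifi47 and Tgtp1 against normal ECs. Brown bars set the implanted cGAMP level against it and are above 1 for Igtp, Ifi47 and Tgtp1.

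The proportions of the family changed between tissues. A ratio of members within a library does not depend on how the library was scaled. Igtp to Irgm2, neighbouring regulators, was 1.06 to 1.22 in normal PBS, 1.14 to 1.38 in normal cGAMP, 1.04 to 1.16 in MMTV-PyMT PBS and 1.43 to 1.6 in MMTV-PyMT cGAMP libraries. In implanted libraries it was 2.59 to 2.81 with PBS and 2.99 to 3.2 with cGAMP. Every implanted library thus stood above each of the other 12 libraries. Tgtp1 to Irgm2 was 0.537 to 0.562 in implanted libraries and at most 0.312 elsewhere, with the lowest ratios, 0.0861 to 0.114, in MMTV-PyMT PBS libraries. For both ratios the exact two-sided permutation test of 3 against 3 libraries gave p = 0.1, the smallest this design allows. The exact permutation test did so in each of the 4 comparisons of implanted with the other tissues (adjusted p = 0.126 over 24 tests). The exact two-sided permutation test also gave p = 0.1 for Irgm1 to Irgm2, lower in implanted than in MMTV-PyMT (PBS) and normal (cGAMP) libraries. For Iigp1 to Irgm2 the exact two-sided permutation test gave p = 0.1 against normal libraries, higher with PBS and lower with cGAMP. Gm12250 and some Ifi47 comparisons reached this smallest value too, so the test alone does not single out Igtp and Tgtp1. Ifi47 to Irgm2 was 0.0713 to 0.0805 in implanted libraries, above all others but normal PBS library 3 at 0.0823.

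Ratios of Irgm1 and Iigp1 to Irgm2 did not set implanted libraries apart from both other tissues in 1 direction. Irgm1 to Irgm2 was 0.226 to 0.249 in implanted, 0.187 to 0.300 in normal and 0.228 to 0.354 in MMTV-PyMT libraries. Iigp1 to Irgm2 was 2.17 to 2.39 in implanted PBS and 1.78 to 1.87 in implanted cGAMP libraries, within or near the range of 1.61 to 2.28 of the others. As a result the leading member changed. Iigp1 exceeded Igtp in all 12 normal and MMTV-PyMT libraries, with Igtp to Iigp1 ratios of 0.5 to 0.904. Igtp exceeded Iigp1 in all 6 implanted libraries, with ratios of 1.11 to 1.29 under PBS and 1.6 to 1.8 under cGAMP.

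**Figure D5:**
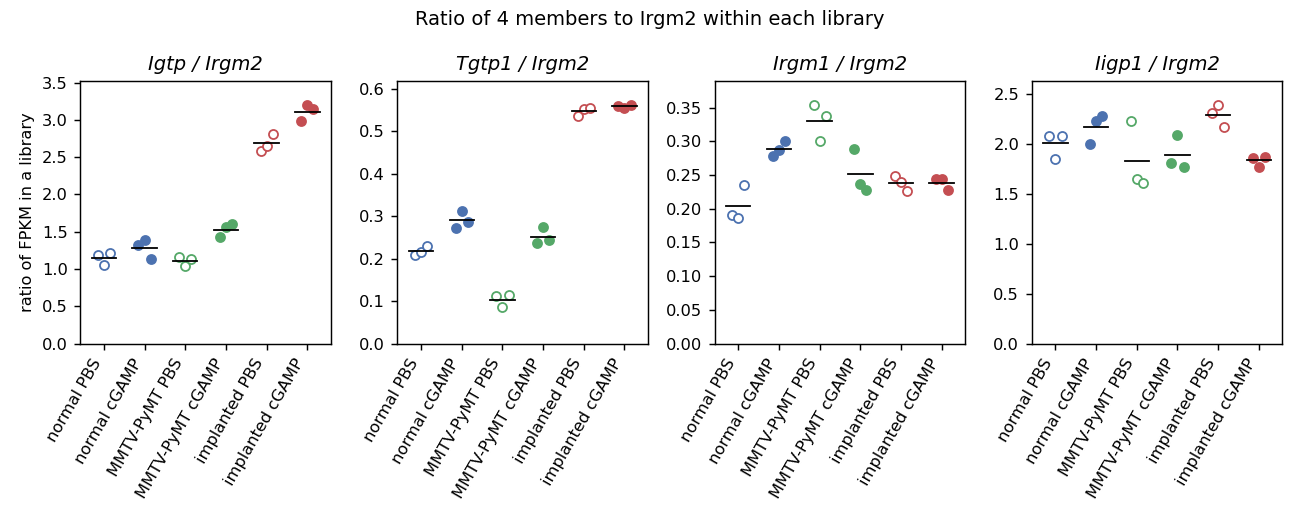
Ratio of Igtp, Tgtp1, Irgm1 and Iigp1 to Irgm2 in FPKM within each library (open circles PBS, filled circles cGAMP, bar at the group mean, axes from 0). Igtp and Tgtp1 stand higher relative to Irgm2 in all 6 implanted libraries than in the other 12, and Irgm1 and Iigp1 do not.

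Across the 18 libraries the 6 members followed each other closely, with Pearson r of log2(FPKM + 1) of 0.948 (Iigp1 with Ifi47) to 0.997 (Igtp with Tgtp1). These are descriptions over libraries that share their groups. Irgm2 and Iigp1 (0.996) and Irgm2 and Irgm1 (0.991) made up the other close pairs. The genes most like the mean profile of the family were Dtx3l (0.989), Stat2 (0.985), Oasl2 (0.985), Isg15 (0.984) and BC023105 (0.984), followed by Cxcl10, Parp14, Gbp5, Gbp2 and Gm12250 at 0.978 to 0.973.

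Other IRG genes were looked up under 16 names, and 7 genes were measured. The names include alternative ones for the same gene, such as Irgb10 and Gm12250. Gm12250, which encodes Irgb10, an effector that acts on bacterial membranes, rose from 9.91 ± 2.03 to 95.6 ± 31.3 FPKM in normal, from 1.58 ± 0.304 to 90.1 ± 29.2 in MMTV-PyMT and from 60.8 ± 13.7 to 443 ± 41.2 in implanted ECs (SD, n = 3). Its baseline in implanted ECs was 6.14 times that of normal and 38.5 times that of MMTV-PyMT ECs, beside 8.71 and 38 for Tgtp1. Gm12250 to Irgm2 was 1.32 to 1.62 in implanted PBS and 2.19 to 2.3 in implanted cGAMP libraries and at most 0.918 elsewhere. Gm4951 and F830016B08Rik were likewise called higher with cGAMP in every tissue, by 2.54 and 2.59 in normal ECs, 4.06 and 2.91 in MMTV-PyMT and 2.71 and 2.85 log2 units in implanted ECs. Their low baselines shrink these values on the log2(FPKM + 1) scale. In mean FPKM Gm4951 rose 7.38-fold in normal, 65.3-fold in MMTV-PyMT and 6.94-fold in implanted ECs. F830016B08Rik rose 12.2-fold, 49.7-fold and 8.37-fold in the same order. Both were higher at baseline in implanted than in normal ECs, by 2.06 and 1.96.

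Gm5431, at 0.0878 FPKM in normal PBS ECs, was called higher with cGAMP in MMTV-PyMT (1.20) and implanted (2.57) ECs and passed adjusted p alone in normal ECs (0.76). In mean FPKM it rose 41.1-fold, 19.5-fold and 9.59-fold in the same order, from 2 to 5 reads a library in MMTV-PyMT PBS ECs. The long genes 9930111J21Rik1 and 9930111J21Rik2, which share 76% and 52.3% of their runs of 75 bases with other genes and are uncertain, were called higher in all 3 tissues, by 1.13 to 1.89 and 1.38 to 2.39. Unlike the members, 9930111J21Rik2 was lower at baseline in implanted than in normal ECs (−0.68, passing adjusted p alone), and 9930111J21Rik1 did not differ by test (−0.13, limma adjusted p of 0.485). Irgq, a relative that lacks the interferon response of the others, was not called with cGAMP in any tissue (−0.18, −0.31 and −0.60) and passed adjusted p as lower in MMTV-PyMT and implanted ECs. In all, 5, 6 and 6 of the 7 other IRG genes were called higher with cGAMP in normal, MMTV-PyMT and implanted ECs.

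The guanylate-binding proteins (Gbps) are larger interferon-inducible GTPases that act together with IRGs at vacuoles. With cGAMP 7 of 8 measured Gbps were called higher in normal ECs and 8 of 8 in both tumours, led by Gbp5 in each (3.15, 4.84 and 3.56 log2 units), with Gbp9 the lowest in normal (0.36) and implanted (1.61) and Gbp2b in MMTV-PyMT ECs (1.35). At baseline 6 of 8 were higher by call in implanted than in normal ECs, from 0.59 for Gbp9 to 2.52 for Gbp10. Proteins that attach LC3 and its relatives to membranes help IRGs to find their target. Of 11 such genes (Atg5 and Map1lc3a among them) limma called 0 higher or lower with cGAMP in each tissue, and so did the voom fit to recovered reads. At an unadjusted p below 0.05, 5 were lower in normal, 3 lower in MMTV-PyMT and 2 higher and 2 lower in implanted ECs.

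Interferon signalling genes and interferon targets were described for the same comparisons. Of 15 receptors, kinases and factors, cGAMP raised 8 by call in normal and 8 in MMTV-PyMT ECs, against 7 for implanted tumours. Usp18, a brake on the receptor, rose most, by 4.03, 4.75 and 4.56 log2 units, while the lowest values were −0.83 (Tyk2, normal) and −0.03 and −0.42 (Ifnar1, both tumours). Irf1, an interferon-induced factor, was at 36.9 ± 1.53 (normal), 22.8 ± 4.8 (MMTV-PyMT) and 48.3 ± 5.5 (implanted) FPKM with PBS (SD, n = 3) and, in the same order, 149 ± 10.6, 134 ± 5.93 and 142 ± 22.4 with cGAMP, so that its induced libraries overlapped between the 3 tissues. Irf9 was 10.4 ± 0.526, 10.7 ± 0.795 and 16.1 ± 1.58 with PBS and 31.3 ± 2.31, 30.8 ± 1.52 and 27.9 ± 2.03 with cGAMP.

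Among 12 genes driven mainly by the ISRE, such as Rsad2 and Ifit1, 12 were called higher with cGAMP in each tissue. Ddx58 rose least (1.65, 2.01 and 2.08 log2 units in normal, MMTV-PyMT and implanted ECs), and Oasl1 (7.01, normal) and Rsad2 (7.49 and 6.96, tumours) rose most. Their baseline in implanted ECs stood further below the induced level of normal ECs than that of the IRGs did, with a median of −3.86 against −1.12 log2 units. Oasl2 in this list was at −0.70. Other lists came nearer to the induced level than the 6 members. Their medians were −0.61 for the other IRG genes, −0.25 for the Gbps and 0.10 for the interferon-gamma-inducible genes. Among 13 interferon-gamma-inducible genes 8 were called higher with cGAMP in normal ECs and 12 in either tumour, led by Ccl5 (3.83, 4.91 and 5.68 log2 units in normal, implanted and MMTV-PyMT ECs), and 6 were higher at baseline in implanted than in normal ECs, where Cxcl9 led at 5.32. Of 7 genes for MHC class II and its transactivator Ciita, limma called 0 with cGAMP in each tissue, as did the voom fit to recovered reads, and at an unadjusted p below 0.05 there were 0 for normal, 1 lower for MMTV-PyMT and 3 higher for implanted ECs. All 7 were called higher at baseline in implanted ECs, from 1.07 for H2-Eb1 to 3.26 for Cd74 against normal ECs. The promoter windows of the ISRE-driven genes held an ISRE in 5 of 9 and those of the Gbps in 5 of 5, and none of either list held a GAS within 10 bases of it.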

How the data were processed

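The authors sorted live CD45-negative, CD31-positive cells after bead enrichment, made libraries with the NEBNext Ultra II Directional kit, sequenced them as paired-end reads, aligned them to mm10 with STAR 2.7 and counted with HTSeq. The deposited values are FPKM per gene, 1 column a library, and how the step from counts to FPKM was made and whether counting used strand were not given in the sources used here. Columns that name no tumour were taken as normal fat pad, since all others name one. The table held 16248 genes, each above 0 in all 18 libraries. FPKM steps gave whole reads for 99.9% of genes, within 0.02 read at low and 0.2 at high counts, and 9068064 to 12058796 reads a library, where 1 read on 1 kb was 0.0753 to 0.1196 FPKM. Over 18 replicate pairs chi-square per gene was 4.07 to 31.1, so no library was counted as a copy.

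Differences were tested with limma 3.58.1 (R 4.3.3, trended eBayes) on log2(FPKM + 1), for the 13983 genes with FPKM of at least 1 in at least 3 libraries and all 6 groups in 1 fit, with Benjamini-Hochberg adjustment over all of them in each of 14 comparisons. Intervals are 95% intervals of that fit. The code was tested on simulated data. Ratios were tested with SciPy 1.17.1. All 7 members were named by the rule, all other measured IRG genes were named, and of other lists the genes with the largest and smallest change, with Irf1 and Irf9. A further gene of that rule is not reported here. Members and lists were chosen with earlier results of these data known. Alternatives covered pseudocount, filters, scaling, recovered reads with voom, the fold limit, the replicate block, fitting only the groups compared, untrended eBayes and leaving out each library. Gene models came from GENCODE M21 and promoters from RefSeq (GRCm38.p6), with both strands searched. Sums over adipocyte markers, the expression of Tgtp2 and the protein sequences were not analysed here.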

Additional observations from a re-analysis of the deposited data

Results flagged for a closer look

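Responses to cGAMP that differed between tissues by a test of the difference itself (interaction terms in limma, Benjamini-Hochberg adjusted over 13983 genes) are listed here, and their causes were not tested. Between implanted and normal ECs the log2 response was lower in implanted ECs by −1.51 for Iigp1 (adjusted p = 0.000284), −1.26 for Irgm1 (0.000203), −1.11 for Tgtp1 (0.0021), −1.04 for Irgm2 (0.00645) and −0.98 for Igtp (0.0155), the last short of the fold limit. Set against normal ECs, MMTV-PyMT ECs had a larger response, by 1.45 for Igtp (adjusted p = 0.00464), 1.17 for Tgtp1 (0.0052), 1.14 for Irgm2 (0.0096) and 1.13 for Iigp1 (0.00765). Between implanted and MMTV-PyMT ECs it was lower in implanted ECs by −2.64 for Iigp1 (adjusted p = 1.21e-05), −2.43 for Igtp (4.54e-05), −2.28 for Tgtp1 (2.99e-05), −2.18 for Irgm2 (5.61e-05) and −1.50 for Irgm1 (0.000107). These comparisons share their groups, and the same PBS libraries enter both the baseline difference and the response. With 3 libraries a group, no test for a single outlying library was made.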

How the results depend on the processing

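Of single-member values under all alternatives, 2258 kept their direction and their side of the call, 34 gained a call, 16 lost it and 30 changed sign. For MMTV-PyMT against normal ECs under PBS 4 members were called in place of 2 with a pseudocount of 0.1, with voom on recovered reads and with no fold limit, and 1 to 4 when each library was left out. For the response of implanted against normal ECs the count of 4 fell to 2 without implanted PBS library 1 and was 2 to 5 over all libraries left out. With no fold limit the counts under cGAMP were 6 for implanted against normal, 6 for implanted against MMTV-PyMT and 1 for MMTV-PyMT against normal ECs, and 6 for implanted PBS against normal cGAMP ECs. In the same order, 31.3%, 26% and 28.7% of all genes were higher and 26.7% lower by adjusted p alone. The sign changes fell on differences of at most 0.43 in the main fit, but the changed values of Ifi47 were not all small. For the Ifi47 response of implanted against normal ECs they were −0.66 (pseudocount 0.1), −0.17 (quantile normalization), −0.29 (total reads), −0.86 (voom) and −0.07 to 0.18 (each library left out). For implanted against normal ECs under cGAMP they were −0.08 (quantile) and −0.09 (total reads) for Irgm1 and −0.21 and −0.06 for Iigp1. For MMTV-PyMT against normal ECs under cGAMP quantile normalization gave −0.16 for Irgm1, −0.16 for Iigp1 and −0.15 for Tgtp1, and total reads −0.14, −0.13 and −0.14, with −0.05 for Ifi47. Leaving out each library there gave −0.09 to 0.10 for Irgm1, −0.09 to 0.20 for Iigp1, −0.06 to 0.23 for Ifi47 and −0.12 to 0.20 for Tgtp1. Quantile normalization gave −0.05 for Iigp1 in implanted against MMTV-PyMT ECs under cGAMP and −0.03 for the Irgm1 response of MMTV-PyMT against normal ECs. Losses of a call under quantile normalization beside those given with the results were Tgtp1 in MMTV-PyMT against normal ECs under PBS (−0.98) and its response between these tissues (0.83). The causes were not tested. Scaling by total reads moved the median of all genes most in implanted against normal ECs under cGAMP (−0.32), in the implanted response to cGAMP (−0.25) and in implanted against MMTV-PyMT ECs under cGAMP (−0.23). The voom fit called 402 to 3313 genes a comparison, against 245 to 1986. Replicate numbers of the labels did not pair the libraries (correlations of deviations −0.29 to 0.26, and 1 of 9 PBS libraries closest to its own number). With the number as a replicate block the member counts were 6, 6 and 6 for cGAMP, 6, 2 and 6 under PBS, 3, 0 and 3 under cGAMP, 3 and 4 for the baseline against induced levels and 4, 4 and 5 for the responses, as without it, and the counts over all genes were 0.935 to 1 times those without. The sum of Tgtp1 and Tgtp2 was not run, since the expression of Tgtp2 was not analysed here. Ifi47 rests on 10 to 18 reads a library in MMTV-PyMT PBS ECs, which limits its fold there, and 3 libraries a group limit all tests.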

Other observations

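Olfr56, an olfactory receptor gene that shares 111 exonic bases with Ifi47 on the same strand, was looked at after its values were seen. It went from 0.305 ± 0.0761 to 8.44 ± 1.53 FPKM with cGAMP in normal ECs, from 0.236 ± 0.0297 to 5.39 ± 1.43 in MMTV-PyMT ECs and from 2.86 ± 0.236 to 31.1 ± 6.57 in implanted ECs (SD, n = 3). In the same groups Ifi47 went from 0.572 ± 0.257 to 5.05 ± 1.03, from 0.244 ± 0.0875 to 5.43 ± 1.2 and from 2.94 ± 0.55 to 14.9 ± 1.39 FPKM. Whether reads of Ifi47 were counted as Olfr56 was not tested.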
